A study of Mus musculus with 6 samples.

Results

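Oxidative phosphorylation is the last stage of respiration in mitochondria. Complexes I to IV of the inner membrane pass electrons on to oxygen, complexes I, III and IV pump protons as they do so, and complex V, the ATP synthase, uses the proton gradient to make ATP. Most subunits are encoded in the nucleus and a few catalytic ones in mitochondrial DNA, and neurons depend on this pathway for much of their ATP. The nuclear genes were chosen by symbol: Nduf genes for complex I, Sdha to Sdhd for complex II, Uqcr genes and Cyc1 for complex III, Cox4 to Cox8 genes for complex IV and Atp5 genes for complex V. A probe set, the group of probes that reads a transcript on the array, was a member if the annotation gave it to 1 such gene alone. This gave 180 probe sets of 91 genes out of 45037 probe sets. Another 10 probe sets carry a matching symbol together with other genes, and were left out.

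The arrays measured RNA from left and right GFP-positive motoneurons of the cervical spinal cord in 3 littermate E11.5 mouse embryos. All carried the HB9::GFP transgene, in which a promoter active in spinal motoneurons drives GFP. In each embryo the left and the right region were laser-captured from the same sections and amplified as 1 pool each, so that there were 3 left and 3 right pools, 6 arrays in all, and each embryo gave 1 ratio of right to left. The labels give no treatment or further mutation. A captured region holds whatever lies among the motoneurons, and in bulk RNA fewer cells of a type cannot be told apart from less RNA per cell. Values are MAS5 signals on a linear scale, and signals of different probe sets are not comparable with each other. The motoneuron genes Mnx1 and Isl1 read at least 3520 and 3771 in every pool, and Slc18a3, the vesicular acetylcholine transporter, read 1304 to 1866.

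The comparison took in probe sets with a signal of 200 or more in some pool, namely 142 member probe sets of 81 genes: 71 probe sets of 40 genes for complex I, 7 of 4 for complex II, 12 of 9 for complex III, 24 of 11 for complex IV and 28 of 17 for complex V. The other 10 genes stayed below this limit in every pool. Of these, 7 are isoforms known from particular tissues or conditions: Cox6a2, Cox7a1 and Cox8b from heart and skeletal muscle, Cox6b2 and Cox7b2 from testis, Cox4i2 from lung and low oxygen, and Ndufa4l2, which is induced by low oxygen. The remaining 3 were Ndufa4, Ndufb1 and Ndufb4, each read here by 1 probe set, whose highest signals were 137, 156 and 115. For Ndufb4, 2 more probe sets are shared with related genes and were left out. Ndufa4 is grouped with complex I by its symbol, although its protein is now placed in complex IV.

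The transcription factors NRF1 and GABP, an ETS factor, are known activators of respiratory chain genes, so the promoters were searched for letters of their binding motifs. In RefSeq promoters of 300 bases (GRCm38.p6), 74 of the 91 genes had an entry, with 79 promoters. The letters TGCGCA, found at the ends of the NRF1 consensus, were present on either strand in 24.1% of them and in 7.76% of all 32851 promoters. The letters CATGCGC, from the middle of that consensus, were present in 17.7% and 3.91%, and the ETS core CCGGAAG in 24.1% and 8.86%. TGCGCA and CATGCGC can overlap within 1 site. These matches are letters in a window and not measured sites. All of the searched letters contain CG, and the promoters of members were set beside all promoters without matching for base content. Whether base content accounts for the higher shares was not tested. The promoters of 3 members with high right over left ratios are shown, since their signals are followed in detail below, with the searched letters in capitals. They are those of Cox8a (chr19:7217567-7217866), Uqcr11 (chr10:80406772-80407071) and Ndufa5 (the first of 2 entries, chr6:24527477-24527776), all on the minus strand and written 5′ to 3′.
Cox8a: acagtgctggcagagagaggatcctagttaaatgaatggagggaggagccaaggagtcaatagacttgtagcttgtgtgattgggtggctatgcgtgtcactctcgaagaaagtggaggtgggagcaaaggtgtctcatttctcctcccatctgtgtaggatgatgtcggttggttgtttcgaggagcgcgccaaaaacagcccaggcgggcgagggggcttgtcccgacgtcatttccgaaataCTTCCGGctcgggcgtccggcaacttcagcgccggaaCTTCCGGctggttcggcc
Uqcr11: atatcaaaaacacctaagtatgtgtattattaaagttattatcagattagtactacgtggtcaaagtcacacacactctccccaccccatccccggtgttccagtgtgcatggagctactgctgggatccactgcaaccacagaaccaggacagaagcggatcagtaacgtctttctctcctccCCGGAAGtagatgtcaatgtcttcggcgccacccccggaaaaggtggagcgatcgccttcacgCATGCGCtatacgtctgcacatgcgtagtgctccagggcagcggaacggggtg
Ndufa5: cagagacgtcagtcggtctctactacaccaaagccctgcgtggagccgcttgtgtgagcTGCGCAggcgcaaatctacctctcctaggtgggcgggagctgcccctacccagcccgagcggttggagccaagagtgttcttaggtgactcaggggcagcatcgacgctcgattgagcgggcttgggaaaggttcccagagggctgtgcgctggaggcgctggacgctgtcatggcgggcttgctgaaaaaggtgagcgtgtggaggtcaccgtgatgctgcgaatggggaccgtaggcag
Cox8a holds 2 ETS cores, Uqcr11 holds 1 ETS core and 1 CATGCGC, and Ndufa5 holds 1 TGCGCA. The promoter of Ndufv2, whose ratios are also followed below, holds none of the searched letters. A relation between these letters and the right over left ratio was not tested.

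The comparison of the sides asks whether left and right motoneurons differ in transcripts of the respiratory chain. Of the members, only the assembly factor Ndufaf6, lower on the right, met the fold rule of the study's methods, and that call was lost under several other settings. The fold rule asks that the 3 embryos share a sign, and that the mean log2 ratio and those of 2 or more embryos lie beyond 0.58, which is 1.5-fold. It was met on the right by 0 of 142 member probe sets, against 2.4% of all 21853 tested, and on the left by 1, against 1.55% of all. With limma, a linear model with side and embryo as terms, 0 members and 0% of all tested probe sets passed an adjusted p of 0.05 (Benjamini-Hochberg). An unadjusted p under 0.05 was found for 2 members higher on the right (background 1.92%) and 0 higher on the left (background 1.48%), which gives 1.41% and 0% of the members. The count of 2 fell to 1 with no term for embryo and to 0 without a variance trend. The ratio was positive in all 3 embryos for 17 members, 12% of them against 12.7% of all tested, and negative in all 3 for 8, 5.63% against 10.8%. Left and right signals did not overlap for 3 members higher on the right (background 2.98%) and 2 higher on the left (background 2.45%). For a single probe set the smallest p of an exact two-sided sign-flip test over 3 embryos is 0.25.

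Within single embryos the picture was different. In embryo 1 most members read higher on the right, whereas in embryos 2 and 3 they were split or slightly lower. The log2 ratio of right over left was above 0 for 116 of 142 members in embryo 1 (81.7%, against 51.8% of all tested), for 65 in embryo 2 (45.8%, against 52.4%) and for 54 in embryo 3 (38%, against 49.8%). Its median over the members in embryos 1, 2 and 3 was 0.34, −0.012 and −0.047, beside 0.028, 0.028 and −0.0011 over all tested probe sets. With every array scaled to the same median signal, 94, 36 and 88 members were above 0 in embryos 1, 2 and 3 (66.2%, 25.4% and 62%, against 40.3%, 38.3% and 65.6% of all tested), so that the majority in embryo 3 turned over. Among members, 32 were over 1.5-fold higher on the right in embryo 1 (22.5%, against 19% of all tested) and 6 over 1.5-fold lower (4.23%, against 16.4%). In embryo 2 there were 7 each way (4.93%, against 16.7% on the right and 12.9% on the left), and in embryo 3 there were 2 on the right (1.41%, against 2.75%) and 1 on the left (0.704%, against 4.13%). Ratios spread less among bright probe sets in general. Their SD in embryos 1, 2 and 3 was 0.45, 0.36 and 0.15 over all with a mean signal of at least 1000. Over all tested it was 0.97, 0.86 and 0.38. Members were brighter than most, so their low shares are not read as a trait of these genes. The shift in embryo 1 was small and shared by many members, with a median of 1.27-fold. Each embryo is 1 pool against 1 pool, so no embryo's shift has a test of its own.

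**Figure D1:**
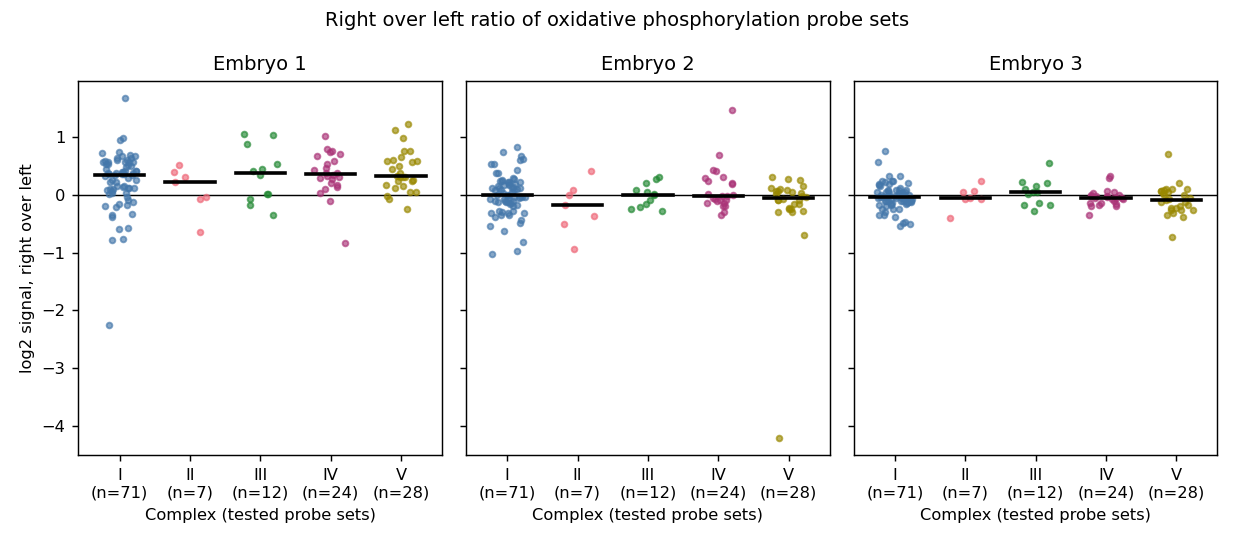
Log2 signal of right over left (y axis) for each tested member probe set (points), by complex (x axis), in embryos 1, 2 and 3. Black bars are medians, which lie between 0.23 and 0.38 in embryo 1 and between −0.17 and 0.054 in embryos 2 and 3.

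All 5 complexes had a positive median in embryo 1. It was 0.34 for complex I, 0.23 for complex II, 0.38 for complex III, 0.36 for complex IV and 0.32 for complex V. Of the 24 complex IV probe sets 22 read higher on the right in that embryo, and of the 28 of complex V 25 did, against 56 of 71 for complex I, 9 of 12 for complex III and 4 of 7 for complex II. In embryo 3, 5 of the 24 complex IV probe sets read higher on the right, but 16 did with median scaling. Over the 3 embryos the median of the mean ratio was 0.10, −0.16, 0.11, 0.088 and 0.069 for complexes I to V, and 0.090 over all members, beside 0.016 over all tested probe sets. With only the brightest probe set of each gene the median of complex II was −0.00025, with 2 of its 4 genes above 0, and limits of 500 on the highest or of 200 on the mean signal gave the same value. Without probe sets that may read several transcripts the median of complex I was 0.021. Without embryo 1 the medians were −0.0024, −0.061, 0.012, −0.019 and −0.049, and −0.027 over all members. The sign of the median of complex V also turned, to −0.018, when every array was scaled to the same median signal, which moved all ratios of embryo 1 down by equal amounts (from 0.028 to −0.14 over all tested probe sets). Relative to all tested probe sets the members in embryo 1 stood 0.31 higher as deposited and 0.35 higher after quantile normalization. Median scaling cannot change this difference, since it moves all ratios of an embryo by the same amount.

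The right pool of embryo 1 stood out by its level. The median signal of the member probe sets was 2009, 2004 and 1985 in the left pools of embryos 1, 2 and 3 and 2459, 1902 and 1988 in the right pools, whereas the median over all tested probe sets ranged only from 503 to 518. The right pool of embryo 1 also stood apart in genes of other cells and in array controls. The summed signal of 10 mesenchyme and sclerotome genes was 17219 there, 1520 to 2712 in the left pools and 2696 to 2997 in the other right pools, and all 7 that were tested read over 1.5-fold higher on the right in embryo 1. In embryo 2, 6 of these 7 also did, and 3 met the fold rule on the right. For 10 muscle genes the sum was 5181 in the right pool of embryo 1. It was 377 to 663 in the left pools and 541 to 565 in the other right pools. All 8 that were tested read over 1.5-fold higher on the right in embryo 1. Each of them reached the signal limit only in that right pool, so the limit itself favoured this count. Of the untested muscle genes, Tnni1 had a log2 ratio of 2.23 in embryo 1 and Des one of −0.17. Only Myog met the fold rule, and it read only 4.05 to 14.0 in embryos 2 and 3. For 5 measured cell cycle genes the sum was 6666 in the right pool of embryo 1. On the left it was 3296 to 5187, and in the other right pools 3419 to 5206. No marker is listed at 0. The hybridisation control cre read 40908 there and 27094 to 31755 on the other arrays, BioB 1398 against 830 to 1043, and the actin 3′ to 5′ ratio was 2.51 against 1.90 to 2.24, whereas that of GAPDH was 3.25, within the 2.65 to 3.37 of the others. Motoneuron genes summed to 75356 there and to 48392 to 66173 elsewhere, and genes of all neurons to 91684 and 80785 to 87165. Most of the gap in motoneuron genes between the sides of embryo 1 was Slit2, at 20999 on the left and 29788 on the right. The median log2 ratio of the 10 motoneuron genes in embryo 1 was 0.0034. Mnx1, Isl1, Isl2, Lhx4 and Chat were lower on the right there, and Lhx3, Slc18a3, Prph, Slit2 and Pou3f1 higher. The sums of erythroid genes (36434, against 20254 to 37430), endothelial genes (1277, against 788 to 1943) and neural progenitor genes (8301, against 6927 to 11720) lay there within the range of the other pools. Within the pair of embryo 1, however, all 4 tested erythroid genes read over 1.5-fold higher on the right (median log2 ratio 1.28), and 0 did in embryos 2 and 3. The part of these differences in the shift of the respiratory genes was not tested. Cytosolic ribosomal protein genes, which are also abundant and widely expressed, had medians of 0.45, −0.03 and −0.04 in the 3 embryos (81 probe sets of 40 genes), and 71 of the 81 were above 0 in embryo 1.

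Complex I, the NADH dehydrogenase, is the largest of the complexes, with a core that carries flavin and iron-sulphur clusters and many accessory subunits around it. The accessory subunit Ndufa5 read 3110, 1934 and 2240 in the left pools of embryos 1, 2 and 3 and 4256, 2967 and 2611 in the right ones. It was higher on the right in each embryo, but the groups overlapped. The mean log2 ratio was 0.43 ± 0.20 (SD, n = 3 embryos; limma adjusted p = 0.974, unadjusted p = 0.019). Its brighter probe set did not repeat this in embryo 3, with 0.37, 0.54 and −0.12. The accessory subunit Ndufb10 read 367, 320 and 407 in left pools and 544, 414 and 481 in right pools in embryos 1, 2 and 3. Here the 3 right signals lay above the 3 left ones, with a mean log2 ratio of 0.39 ± 0.17 (adjusted p = 0.974). Ndufb3, another accessory subunit, averaged 0.39 ± 0.43 and rested on embryos 1 and 2 (0.36 and 0.83, against −0.02). Of the 46 accessory probe sets of the complex, 39 read higher on the right in embryo 1, 24 in embryo 2 and 15 in embryo 3. Ndufa6, for example, had log2 ratios of 0.94, 0.17 and −0.37, and Ndufa12 in its brightest probe set 0.70, −0.03 and −0.12.

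The core subunits of complex I had a median log2 ratio of 0.23 in embryo 1, against 0.38 for the accessory ones. Ndufs1, the largest, which holds iron-sulphur clusters, read 3452, 3478 and 2760 in left pools and 2298, 2479 and 3139 in right pools. It was lower on the right in embryos 1 and 2 and higher in embryo 3, with a mean log2 ratio of −0.30 ± 0.42. Ndufv1, which binds NADH and flavin, was even, at 5201, 4926 and 5251 in left pools and 5275, 5044 and 5197 in right pools (0.01 ± 0.03). Ndufv2, its iron-sulphur partner, averaged 0.15 to 0.21 over 3 probe sets. One of these was positive in all 3 embryos, at 0.16, 0.12 and 0.15. Ndufs4, an accessory subunit whose loss in humans and mice causes a brain disease of Leigh type, was slightly lower on the right in each embryo in 2 of its 3 tested probe sets. In one of them the signals were 416, 424 and 425 in left pools and 384, 349 and 397 in right pools, which do not overlap, with a mean log2 ratio of −0.17 ± 0.10.

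The Ndufaf genes encode assembly factors, which build complex I without remaining in it, and most of their mean ratios were below 0. Of 9 tested probe sets of 8 Ndufaf genes, 7 had a negative mean ratio, with a median of −0.18, and in embryo 2 all but 1 read lower on the right (median −0.55). This holds for the family chosen by symbol and not for assembly factors at large. The 33 tested assembly factors outside it, which serve complex I and the other complexes, had medians of −0.071, 0.024 and 0.017 in embryos 1, 2 and 3. Ndufaf6, the 1 member that met the fold rule, read 218, 223 and 204 in left pools and 129, 110 and 194 in right pools. The left signals were nearly equal and all lay above the right ones, but close to the limit of 200. Its call by the fold rule was lost with median scaling, with 50 added to each signal, with either of the other limits on the signal, and without embryo 1 or embryo 2. The log2 ratios were −0.76, −1.02 and −0.07, with a mean of −0.62 ± 0.49 (limma adjusted p = 0.974). A brighter case, Ndufaf4, read 1544, 2062 and 1714 in left pools and 898, 1169 and 1990 in right pools, so that embryo 3 went the other way (mean log2 ratio −0.46 ± 0.59). Its second probe set averaged −0.07. Ndufaf2 had a positive mean (0.35), and Ndufaf1, at 2079 to 2513 in left pools and 1907 to 2249 in right pools, was lower on the right in each embryo, with a mean of −0.19 ± 0.15.

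Complex II, succinate dehydrogenase, is shared with the citrate cycle and is encoded in the nucleus throughout. Sdha, its flavoprotein, read 10594, 9156 and 7298 in left pools and 10298, 7098 and 6971 in right pools in its brightest probe set. It was lower on the right in each embryo, with a mean log2 ratio of −0.16 ± 0.18, and its signals ranged more widely between embryos than between sides. Sdhb, the iron-sulphur subunit, read 4901, 5250 and 4588 in left pools and 4678, 3713 and 4439 in right pools, also lower on the right in each embryo (−0.20 ± 0.26), mostly in embryo 2 (−0.50). The membrane anchors pointed the other way. Sdhd averaged 0.16 ± 0.14 and Sdhc 0.30 ± 0.20 in their brightest probe sets, whereas the other tested probe set of Sdhc, with signals of 121 to 240, averaged −0.34. None of these passed the test (adjusted p = 0.974 or higher with limma), and with only 4 genes the median of the complex moved to 0.086 without embryo 2.

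Complex III, the cytochrome bc1 complex, takes electrons from ubiquinol to cytochrome c. Its haem subunit Cyc1 was the most even of the named genes of this complex, with 9575, 8181 and 7911 in left pools and 9141, 8145 and 8230 in right pools and a mean log2 ratio of −0.01 ± 0.06. The Rieske iron-sulphur protein Uqcrfs1 averaged 0.08 ± 0.23, and the core protein Uqcrc1 read lower on the right in embryos 1 and 2 (mean −0.18 ± 0.21). The small subunits Uqcr11 and Uqcrq had the highest mean ratios of the complex. Uqcr11 read 681, 607 and 692 in left pools and 1259, 628 and 699 in right pools, so that the right pool of embryo 1 lay far above the other 5. The log2 ratio was 0.89 in embryo 1, against 0.05 and 0.01. Uqcrq read 1402, 2123 and 1972 in left pools and 2913, 1761 and 2292 in right pools, with log2 ratios of 1.06, −0.27 and 0.22. Its left and right signals overlapped.

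Complex IV, cytochrome c oxidase, has its catalytic core encoded in mitochondrial DNA, and its nuclear subunits are small proteins around that core, several of them with tissue isoforms. Cox8a, a small and broadly expressed subunit, gave the smallest p of all members. It read 2050, 1797 and 1684 in left pools and 3570, 2422 and 2060 in right pools in embryos 1, 2 and 3. All 3 right signals lay above the left ones, though the highest left and the lowest right signal were nearly equal. The log2 ratios were 0.80, 0.43 and 0.29, and the mean was 0.51 ± 0.26 (SD, n = 3 embryos; limma adjusted p = 0.974, unadjusted p = 0.0133), with 3 of 3 embryos higher on the right. A second probe set, at 873, 947 and 893 in left pools and 1776, 1265 and 929 in right pools, averaged 0.50 ± 0.49. Without embryo 1 the mean of the brighter one was 0.36. It stayed under the average of 0.58 that the fold rule requires. The other tested complex IV genes had mean ratios from −0.05 (Cox7c) to 0.24 (Cox6a1) in their brightest probe sets. Cox4i1, which is present in most tissues, averaged 0.13 ± 0.22, Cox5a 0.07 ± 0.27, Cox7a2 0.07 ± 0.21 and Cox7a2l, a factor of supercomplexes, −0.02 ± 0.31.

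**Figure D2:**
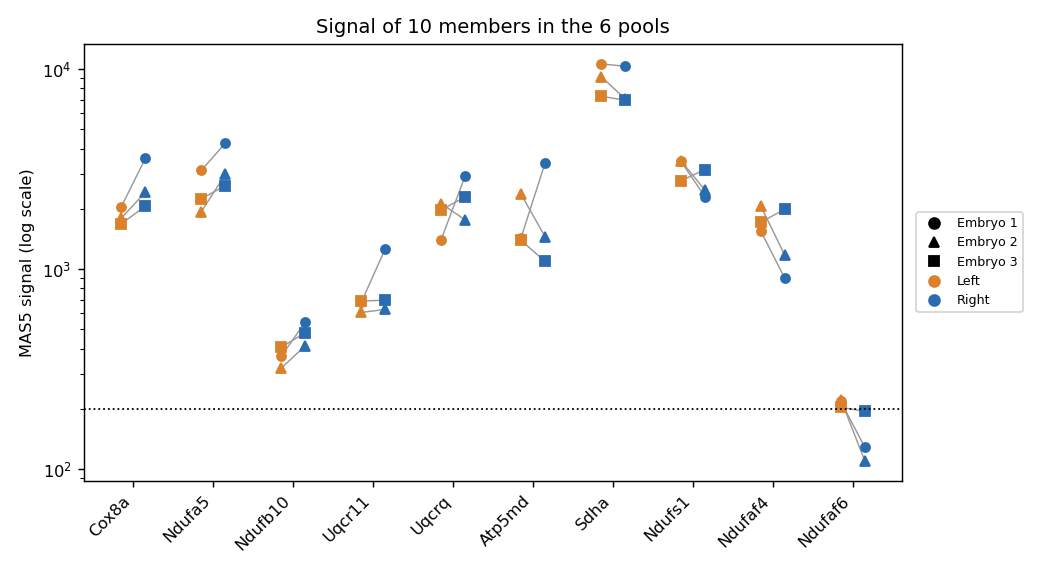
MAS5 signal (y axis, log scale) of 10 members (x axis) in the left (orange) and right (blue) pools of embryos 1, 2 and 3, with a line joining the pools of an embryo and a dotted line at the limit of 200. Cox8a and Ndufb10 read higher on the right in each embryo and Ndufaf6 and Sdha lower, whereas Uqcrq, Atp5md, Ndufs1 and Ndufaf4 changed direction between embryos.

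Each isoform was read only against the limit, since levels of different probe sets cannot be compared. Cox4i1, Cox6a1, Cox6b1, Cox7a2 and Cox8a lay above it in every pool in their brightest probe sets. The tissue-restricted forms other than Cox8c lay below it, as did the broadly expressed Ndufa4, Ndufb1 and Ndufb4, so a reading below the limit does not show that a transcript was absent. Cox4i2 ranged from 9.01 to 103, Cox6a2 from 110 to 186 in its brighter probe set, Cox6b2 from 35.6 to 62.3, Cox7a1 from 75.3 to 127, Cox8b from 3.95 to 33.7 and Cox7b2 from 3.56 to 51.2. In the right pool of embryo 1, where muscle genes were high, Cox6a2 read 178, Cox7a1 75.3 and Cox8b 33.7, of which only Cox8b lay above its range in the other 5 pools. Ndufa4l2 also had its highest signal in that pool (180, against 23.7 to 91.0 elsewhere). Cox8c, known from testis, read 290 to 430 in 1 of its probe sets and at most 131 in the other. The 3 genes for subunit c of the ATP synthase, Atp5g1, Atp5g2 and Atp5g3, all reached the limit in every pool, at 291 to 479, 552 to 823 and 6611 to 10444, and their mean log2 ratios were 0.17 ± 0.15, 0.17 ± 0.45 and 0.05 ± 0.35.

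**Figure D3:**
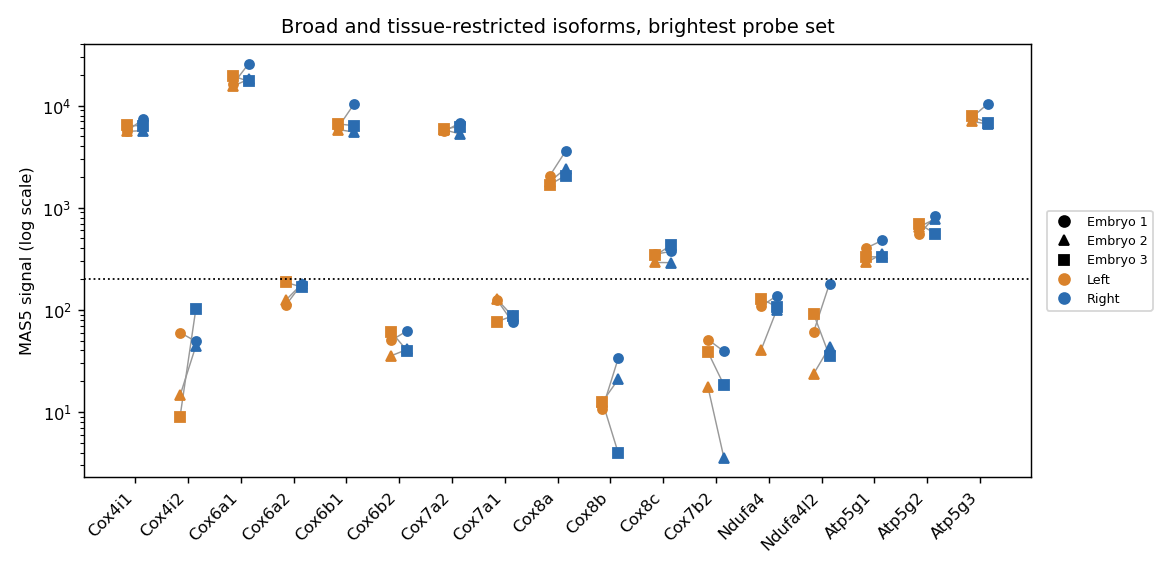
MAS5 signal (y axis, log scale) of the brightest probe set of each isoform gene (x axis) in the left (orange) and right (blue) pools of 3 embryos. Cox4i1, Cox6a1, Cox6b1, Cox7a2, Cox8a, Cox8c and the Atp5g genes lie above the dotted limit of 200 in every pool and the other isoforms, and Ndufa4, below it.

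Complex V, the ATP synthase, couples a catalytic head to a membrane rotor. The alpha and beta subunits of the head were nearly even between the sides. Atp5b, the catalytic beta subunit (now Atp5f1b), read 21684, 19844 and 20909 in left pools and 22360, 20238 and 21672 in right pools, a mean log2 ratio of 0.04 ± 0.01, which is small but positive in each embryo. Its sign turned with median scaling and with quantile normalization, to −0.04 and −0.02. Atp5a1, the alpha subunit (now Atp5f1a), averaged −0.03 ± 0.04 at 23511 to 26080, and its other bright probe set 0.09. Atp5e, the epsilon subunit, read 220, 228 and 225 in left pools and 374, 238 and 242 in right pools. The right signals all lay above the left ones, near the limit, and the ratio (0.31 ± 0.40) was mainly that of embryo 1. Atp5pb, subunit b of the stalk, averaged 0.02 ± 0.20. Atp5md, a small subunit at the dimer interface, read 1434, 2360 and 1390 in left pools and 3382, 1452 and 1091 in right pools. Its ratio was 1.24 in embryo 1 and −0.70 and −0.35 in the others, so its direction turned between embryos.

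Across the complexes, the shift in embryo 1 was larger for accessory subunits than for catalytic or core subunits. These groups were set by role after the values had been seen, and so carry no test. In complex V only subunits of the head, with Atp5d and Atp5e among them, were counted as core. The subunit c genes Atp5g1, Atp5g2 and Atp5g3 were counted as accessory, with log2 ratios of 0.25, 0.57 and 0.44 in embryo 1. Counting them as core would raise the core median, and was not tried, so the size of the contrast depends on this choice. The 96 accessory probe sets of 54 genes had a median log2 ratio of 0.38 in embryo 1, with 85 (88.5%) above 0, and the 33 core probe sets of 17 genes one of 0.12, with 22 (66.7%) above 0. With 1 probe set a gene the medians were 0.40 and 0.044. In embryos 2 and 3 the accessory medians were −0.014 and −0.060 and the core medians 0.028 and 0.048. With each array scaled to 1 median the core median of embryo 1 was −0.055 and the accessory one 0.21. The difference between them was the same, which such scaling cannot change. Within complex III, accessory subunits stood at 0.45 (7 probe sets) and core subunits at −0.067 (5 probe sets) in embryo 1. The contrast was smaller in complex I (0.38 and 0.23) and complex V (0.39 and 0.27). Complex II had no accessory group and complex IV no core group. Single genes did not all follow these medians. In embryo 1 the core subunits ranged from −0.64 (a probe set of Sdha) to 0.98 (a dim probe set of Atp5a1), with Atp5e at 0.76, Atp5d at 0.59 and probe sets of Ndufv2 and Uqcrc2 at 0.54, and the accessory subunit Ndufa8 stood at −0.57.

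**Figure D4:**
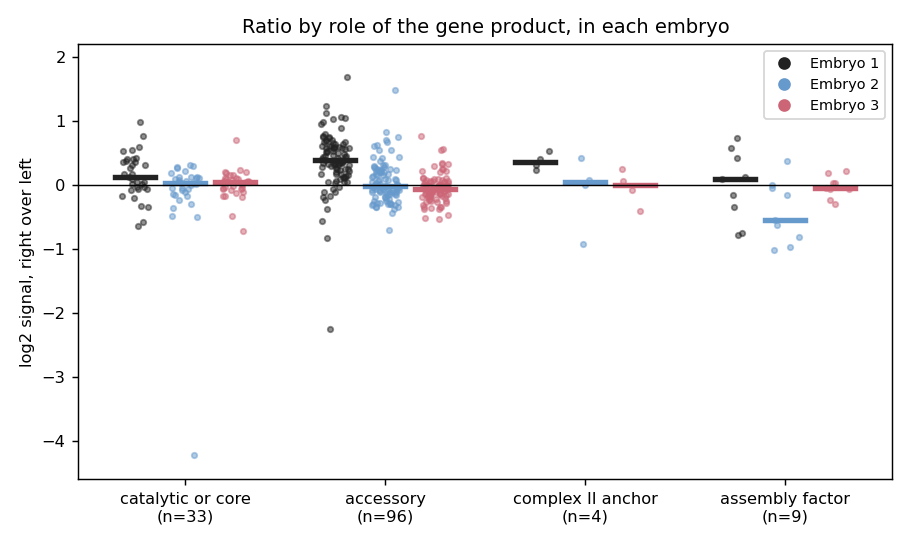
Log2 signal of right over left (y axis) for tested member probe sets grouped by role of the gene product (x axis), in embryos 1 (black), 2 (blue) and 3 (red), with bars at the medians. The accessory median of embryo 1 is 0.38 and the core median 0.12, and the assembly factors, all Ndufaf genes, have a median of −0.55 in embryo 2.

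Probe sets of the same gene differed little in mean ratio and more within embryo 1. For 41 genes with more than 1 tested probe set, the mean log2 ratios of a gene differed by a median of 0.13, and by less than 0.2 in 28 genes. The mean ratios of all members had a median size of 0.13 without their sign, so such differences do not show that probe sets agree. In embryo 1 alone the median difference was 0.31, close to the shift itself, and 14 genes lay under 0.2. In the mean ratio only Atp5c1, the gamma subunit, differed by more than 1. Its dimmer probe set read 375 and 20.2 in the left and the right pool of embryo 2 (mean log2 ratio −1.15), whereas the brighter one was flat, with 7625 to 9123 over the 6 pools and a mean of 0.08 ± 0.11. Ndufb2 and Ndufab1 each had a dim probe set with a large ratio in embryo 1, which their brighter probe sets did not repeat. The signals on the left and the right were 93.0 and 19.5 for Ndufb2 and 101 and 323 for Ndufab1.

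The levels also differed between embryos. After averaging the sides, members of embryo 1 stood 0.16 above the other embryos on the log2 scale, and those of embryo 2 and embryo 3 had −0.13 and −0.019 relative to the rest (medians over 142 probe sets), where all tested probe sets had −0.0010, 0.0092 and 0.017. Among complex II genes in embryo 3, Sdha stood at −0.36, Sdhb at −0.027, Sdhd at 0.033 and Sdhc at 0.33 in their brightest probe sets. The value of embryo 1 includes its high right pool and is not separate from the shift described above. Median member signals were level in the left pools (2009, 2004 and 1985 in embryos 1, 2 and 3), against 2459 in that right pool. With 1 animal for each value these are descriptions.

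Of 33 tested assembly factors outside the Ndufaf family, 11 coenzyme Q synthesis genes, 11 nuclear regulators and 6 carriers, 0 met the fold rule in either direction, and their median ratios lay between −0.064 and −0.011. Over all tested probe sets the shares were 2.4% on the right and 1.55% on the left, so that lists of this size would hold few calls at the background share. Of 12 citrate cycle genes 1 met it on the right, Suclg2, a succinyl-CoA ligase subunit, with 116, 236 and 129 in left pools and 512, 493 and 131 in right pools. Its ratio was that of embryos 1 and 2, with 0.02 in embryo 3 (limma adjusted p = 0.974). In embryo 1 the citrate cycle genes had a median of −0.084 and the assembly factors one of −0.071, where the members had 0.34. Cytochrome c (Cycs), the carrier between complexes III and IV, had ratios of 0.54, −0.12 and −0.06, and Atpif1, the inhibitor of the synthase, 0.62, 0.36 and −0.20. The subunit ND5, encoded in mitochondrial DNA, read 23059, 26419 and 30308 in left pools and 28339, 23620 and 26899 in right pools, with ratios of 0.30, −0.16 and −0.17. Among the regulators, Tfam, which maintains mitochondrial DNA, averaged −0.07 ± 0.34, and Ppargc1a, a coactivator of mitochondrial genes, read 35.5, 153 and 255 in left pools and 366, 134 and 261 in right pools.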

How the data were processed

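RNA of laser-captured pools was amplified, biotin-labelled and hybridised to Affymetrix Mouse Genome arrays by the authors. The deposited values are MAS5 signal intensities from Affymetrix Expression Console (version not given in the sources used here), linear, with a trimmed mean of 500 on every array. Controls (64 of 45101 probe sets) were left out. Probe sets were named by the platform annotation.

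Signals were taken to log2 with no added constant. Probe sets with a highest signal of at least 200 entered a limma fit (limma 3.58.1, R 4.3.3; side and embryo as terms, variance trend, Benjamini-Hochberg over 21853 probe sets), checked on simulated data. Present calls, part of the methods' filter, were not used here. Pools of an embryo are pairs because they come from the same animal. Their deviations from the side means correlated at 0.241, 0.215 and 0.495. The number of arrays limits the precision.

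Members and lists were chosen with earlier results of these data known. Genes were named if they met the fold rule or had an unadjusted p under 0.05, had the 2 highest or 2 lowest ratios of a complex, are core subunits or isoforms, or had probe sets that differ by over 1. Ndufa6, Ndufa12, Ndufv2, Ndufs4, Ndufaf1, Ndufaf2, Ndufb2, Ndufab1, Ndufb1, Ndufb4, Ndufa8, Atp5d, Uqcrc2, Atp5md, Suclg2, Cycs, Atpif1, Tfam and Ppargc1a were named after their values were seen. Alternatives were other scalings, 50 added, other limits, each embryo left out, no term for embryo, no variance trend, other fold limits and other choices of probe set.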

Additional observations from a re-analysis of the deposited data

How the results depend on the processing

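The count of members past an adjusted p of 0.05 with limma was 0 under every alternative run, also with no replicate block (no term for embryo) and without a variance trend. Members with an unadjusted p under 0.05 numbered 2, and 1 with no replicate block (the p of Ndufa5 was then 0.0954) and 0 without a variance trend. The count on the left by the fold rule was 1, and was 0 with median scaling, 50 added to each signal, a limit of 500 on the highest or of 200 on the mean signal, a 2-fold limit and a limit in all 3 embryos. With no limit on the signal it was 3, and 3 on the right, where the main count was 0. With 1 embryo left out in turn it ranged from 0 to 2 on the left and from 0 to 1 on the right, and the call of Ndufaf6 was lost without embryo 1 and without embryo 2. The median of complex II ranged from −0.20 to 0.086 with 1 embryo left out, and the highest value was that without embryo 2. The medians of complexes I, IV and V turned negative without embryo 1. Of the medians over complexes or all members, 6 changed sign, 4 of them without embryo 1. Of the alternative values for single named genes, 21 changed sign, 9 of them without embryo 1 (among them Uqcrq, 0.33 to −0.026, Cox6b1, 0.20 to −0.070, and Cox7c, −0.048 to 0.34) and 8 with median scaling. Ndufaf6, Cox8a and Ndufa5 kept their direction under every alternative run. Signals close to the limit of 200, such as those of Ndufaf6 and Atp5e, are the least certain.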
